A study of Mus musculus with 12 samples.

Results

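The genes described here are the core machinery that makes and uses miRNAs: Drosha and Dgcr8, Dicer1, the Argonautes Ago1, Ago2, Ago3 and Ago4, and the Argonaute partners Tnrc6a, Tnrc6b and Tnrc6c. They were chosen by name for their role, with earlier results of these data known, and they are 10 of the 35944 genes matched in the tables and 10 of the 15459 genes that passed the count filter. RNA-Seq was performed on 12 tumours grown from 4T1 cells, a mouse mammary carcinoma line, placed under the skin of female BALB/c mice aged 6 to 8 weeks (100000 cells per mouse). From day 5, mice received 3 µg of extracellular vesicles (EVs) beside the tumour every 2 days, and tumours were taken on day 21. All EVs came from MS-1 cells, a mouse endothelial line, and were electroporated with a synthetic miRNA. The 4 groups of 3 tumours received EVs loaded with cel-miR-67 (ctrl-EVs, a nematode miRNA that mice lack) or with 1 of the mouse miRNAs miR-142-5p, then miR-183-5p, then miR-222-3p, and values for the miRNA groups follow in this order. The control tumours were therefore also EV-treated, and no untreated tumour is among the samples. Each library holds RNA of a whole tumour, so carcinoma cells, leukocytes and stroma are measured together.

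In the nucleus, the Microprocessor, made of the RNase III enzyme Drosha and its RNA-binding partner Dgcr8, cuts hairpins out of primary miRNA transcripts. Dicer1 trims the exported hairpin to a short duplex, an Argonaute protein keeps the strand that guides it to target mRNAs, and a Tnrc6 (GW182) protein bound to Argonaute recruits deadenylases and decapping factors. A miRNA mimic delivered in an EV enters this route at the Argonaute step, and these factors act in every cell type of a tumour. The comparisons below ask whether the mRNAs of this machinery differed between tumours that received an additional mouse miRNA and tumours that received the control miRNA.

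The mouse miRNAs whose names the mimics carry are shown first because their seeds (bases 2 to 8, in capitals) define the sites that could pair with the machinery's own mRNAs. The sequences are RefSeq mature miRNAs of GRCm38.p6, 5′ to 3′, and not those of the synthetic mimics, which can differ from them at the 3′ end. They lie at chr11:87756867-87756887 (+ strand, gene Mir142), chr6:30169711-30169732 (− strand, gene Mir183) and chrX:19146901-19146923 (− strand, gene Mir222). The seeds are all different.
miR-142-5p: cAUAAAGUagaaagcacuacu
miR-183-5p: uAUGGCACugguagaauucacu
miR-222-3p: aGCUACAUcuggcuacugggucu

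The complement of each seed (ACTTTAT for miR-142-5p, GTGCCAT for miR-183-5p and ATGTAGC for miR-222-3p, searched on the mRNA strand only) was looked for in the 3′ UTR of the most abundant protein-coding transcript of each gene. In 14333 genes with such a UTR, 14.3% held a miR-142-5p match, 9.36% a miR-183-5p match and 9.57% a miR-222-3p match. In the 1933 genes with a UTR of at least 3000 bases, which include 6 of the 10 members, these shares were 39.7%, 26.1% and 30.1%. Among the members, 3 held a miR-142-5p match (Ago1, Ago3 and Tnrc6b), 3 a miR-183-5p match (Ago1, Ago2 and Tnrc6b) and 4 a miR-222-3p match (Ago1, Ago2, Ago3 and Dgcr8). Drosha, Dicer1, Ago4, Tnrc6a and Tnrc6c held none of the 3 motifs in these UTRs. Ago2 held the most, with 5 miR-183-5p matches in its UTR of 11064 bases, and 3 of the 14333 genes (0.0209%), Ago2 included, held as many or more. The median UTR of those genes was 966 bases, and the count was not compared among UTRs of similar length. These 5 sites are shown because they mark the member with the most matches to a delivered miRNA. Each is printed on the mRNA strand with the match in capitals, and the third extends to an 8mer with an A after the seed match. They lie on the − strand of GRCm38 in the 3′ UTR of Ago2, at chr15:73106238-73106267, chr15:73101861-73101890, chr15:73101583-73101612, chr15:73097596-73097625 and chr15:73096455-73096484 in this order.
Ago2 site 1: ttggcagacaaGTGCCATtttgataaaaat
Ago2 site 2: acagacagacaGTGCCATtgcagacattgc
Ago2 site 3: aaaatgtgtgaGTGCCATActgtgatctgg
Ago2 site 4: gcttcatttctGTGCCATctgaaggggcaa
Ago2 site 5: ctcagcgggccGTGCCATtgagatctttta

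The only other 8mers among the members were a miR-142-5p site in Ago3 (chr4:126333635-126333664, − strand) and a miR-222-3p site in Ago1 (chr4:126436804-126436833, − strand).
Ago3 site: tatatataaatACTTTATAacactctatgg
Ago1 site: cagtgtgcactATGTAGCAagaccatgtct

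The libraries held 20285968 to 27021401 estimated reads. The carcinoma markers Epcam, Krt8 and Krt18 were present in every tumour (Krt8 481 to 732 TPM), while Krt19 was low at 0.870 to 10.4 TPM. TPM is a level per unit of transcript length, scaled to the same total in every library. Leukocyte markers (Ptprc, Cd52 and Coro1a) summed to 407 to 1070 TPM, so every library also held immune cell RNA. Summed markers of the other cell types ran from 187 to 385 TPM for macrophages, 845 to 2897 for neutrophils, 12.7 to 88.8 for T cells, 63.4 to 114 for endothelium, 172 to 904 for fibroblasts, 48.3 to 80.7 for adipocytes and 12.0 to 41.0 for skin. The adipocyte sum was nearly all Fabp4 (47.7 to 79.7 TPM), with Adipoq at 0.439 to 2.77 TPM and Plin1 at 0.176 to 1.06 TPM. Most of the skin sum was Krt14 (6.74 to 37.4 TPM), with Krt10 at 3.51 to 5.32 TPM and Krt5 at 0 to 0.451 TPM. The tumours were not alike in make-up. Tumour 3 of the miR-142-5p group had the highest leukocyte (1070 TPM) and T cell (88.8 TPM) sums, against at most 589 and 37.2 TPM elsewhere. Fibroblast markers were 563 to 749 TPM in miR-183-5p tumours and 261 to 559 TPM in ctrl-EV tumours. The 3 leukocyte markers summed to 407 to 438 TPM in miR-183-5p tumours and 482 to 533 TPM in ctrl-EV tumours. Neutrophil markers leaned the other way with overlap, at 1785 to 2897 TPM and 998 to 1919 TPM in these groups. Over all 12 tumours most of the neutrophil sum was S100a8 (279 to 963 TPM) and S100a9 (539 to 1889 TPM). Csf3r had 24.3 to 54.3 TPM and Ly6g 1.10 to 3.04 TPM. Macrophage markers were 187 to 243 TPM in miR-183-5p tumours and 213 to 346 TPM in ctrl-EV tumours. The part of these differences in the members' values was not tested. Tumour 3 of the miR-183-5p group had 169 TPM of skeletal muscle markers (Acta1, Ckm and Myh4) against 0.234 to 1.57 TPM in the other tumours. In 4 libraries (the whole miR-222-3p group plus tumour 3 of the miR-183-5p group), the gene Gm28661 took 0.000621 to 0.324% of the reads it shares with the mitochondrial gene mt-Co2, and in the other 8 it took 7.13 to 41.8%. For miR-222-3p this split and the treatment cannot be told apart.

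All members were expressed in all 12 tumours, and Ago2, the Argonaute able to slice its target, led with 40.9 ± 8.64 TPM (mean ± SD, n = 12). Drosha followed at 35.1 ± 3.19 TPM and Tnrc6a, a scaffold for deadenylases, at 30.9 ± 6.65 TPM. The middle of the order was held by Ago1 (19.5 ± 3.31 TPM), Dgcr8 (13.7 ± 1.45 TPM) and Dicer1 (13.3 ± 2.25 TPM). Tnrc6c (8.43 ± 2.15 TPM), Tnrc6b (5.45 ± 1.27 TPM) and Ago3 (4.93 ± 0.838 TPM) were lower, and Ago4 was lowest at 1.14 ± 0.322 TPM, from 62 to 147 reads per library. The 9 neighbouring pairs were set by the mean TPM of these same tumours, so their tests are not independent of the order. Of these pairs, 7 differed within tumours by an exact two-sided sign-flip permutation test with Benjamini-Hochberg adjustment over the 9 pairs. The largest of these 7 adjusted p-values was 0.0201 (exact test), for Ago2 over Drosha, where Ago2 was higher in 8 of 12 tumours. Dgcr8 and Dicer1 did not differ beyond their spread (mean log2 ratio 0.05 ± 0.22 SD, exact adjusted p = 0.421), nor did Tnrc6b and Ago3 (0.13 ± 0.26, exact adjusted p = 0.119). When only protein-coding transcripts were counted, Dicer1 (7.82 TPM) came before Dgcr8 (7.02 TPM), and 6 of the 9 neighbouring pairs differed. Tnrc6a fell to 19.6 TPM and did not differ from Ago1 at 18.4 TPM (mean log2 ratio 0.08 ± 0.13 SD, exact adjusted p = 0.0766). In the main order that ratio was 0.66 ± 0.14. Dgcr8 did not differ from Dicer1 (exact adjusted p = 0.104) or from Tnrc6c (exact adjusted p = 0.109). With reads per kilobase of the longest transcript, 8 of the 9 pairs differed, and Dicer1 again came before Dgcr8. Each unit has its own order and pairs, so these counts are not of the same comparisons.

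**Figure D1:**
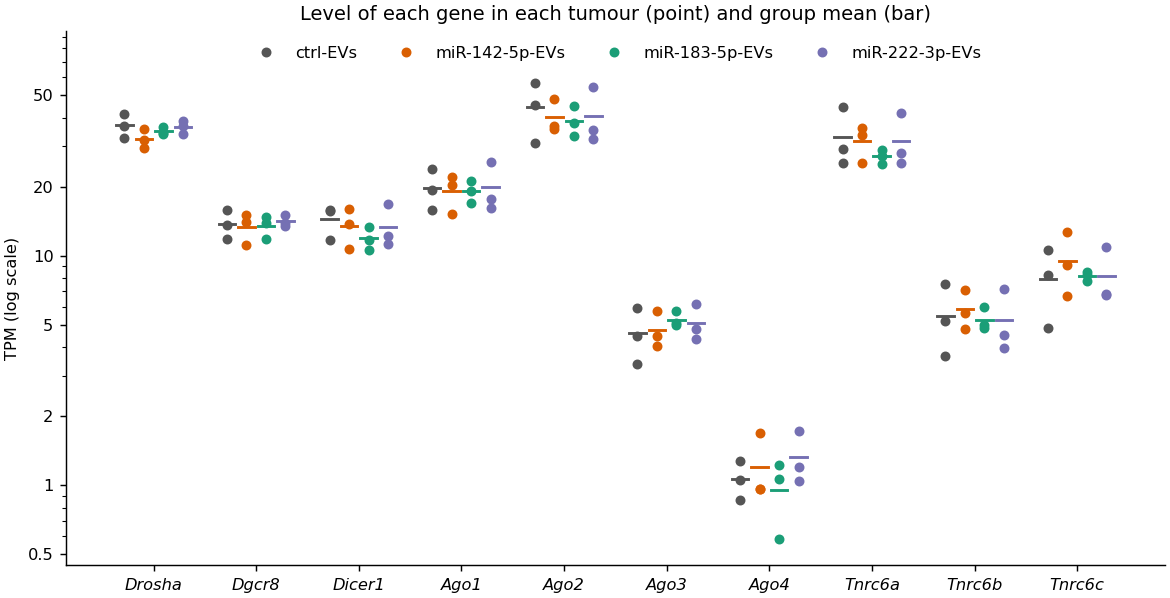
Level of each gene in TPM (log axis) in each of the 12 tumours (points) with the mean of each group of 3 (bars), coloured by the EVs received. Ago2, Drosha and Tnrc6a have the highest means and Ago4 the lowest. Differences between tumours within a gene are small beside the distance from the highest to the lowest gene, while some neighbouring genes overlap.

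The members differed in how much of their signal came from protein-coding transcripts. Ago2 (98.1% of its TPM, mean of 12 tumours), Drosha (95.8%) and Ago1 (94.6%) were nearly all coding. Dgcr8 was the other extreme with 51.3%, followed by Dicer1 with 58.7% and Tnrc6a with 63.6%. In Dicer1, 31.8 ± 9.32% (SD, n = 12) came from 1 retained-intron transcript, and in Tnrc6a 30.1 ± 4.38% did. In Dgcr8, 1 non-coding processed transcript took 22.1 ± 6.80% and 1 retained-intron transcript took 16.9 ± 3.90%. The coding share of single tumours reached at most 58.7% for Dgcr8 and ran from 49.6 to 68.8% for Dicer1. Tnrc6c was spread over several coding transcripts, the most abundant with 41.7 ± 8.99% and 24.7 ± 13.4%. How reads are divided between overlapping transcripts of 1 gene is an estimate of Salmon, and its error was not analysed here.

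Between treatments, coding shares overlapped for most members. In miR-183-5p tumours the coding share of Ago3 was 68.1, 71.8 and 76.1%, and in ctrl-EV tumours it was 82.4% or more (mean 86.6%). The difference was -14.7 percentage points (exact permutation p = 0.1, the smallest that 3 against 3 tumours can give). In miR-222-3p tumours the coding share of Ago4 was 71.2, 73.1 and 79.0%, and in ctrl-EV tumours 100% in all 3 (difference -25.6 points, exact permutation p = 0.1), on a gene with no more than 147 reads. These were the only non-overlapping shares in 30 comparisons of 10 members with ctrl-EVs, 0 of 10 for miR-142-5p, 1 of 10 for miR-183-5p and 1 of 10 for miR-222-3p. Over 10820 genes with coding and non-coding transcripts, the groups did not overlap in 5.85%, 6.84% and 6.4% of genes in the same 3 comparisons.

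**Figure D2:**
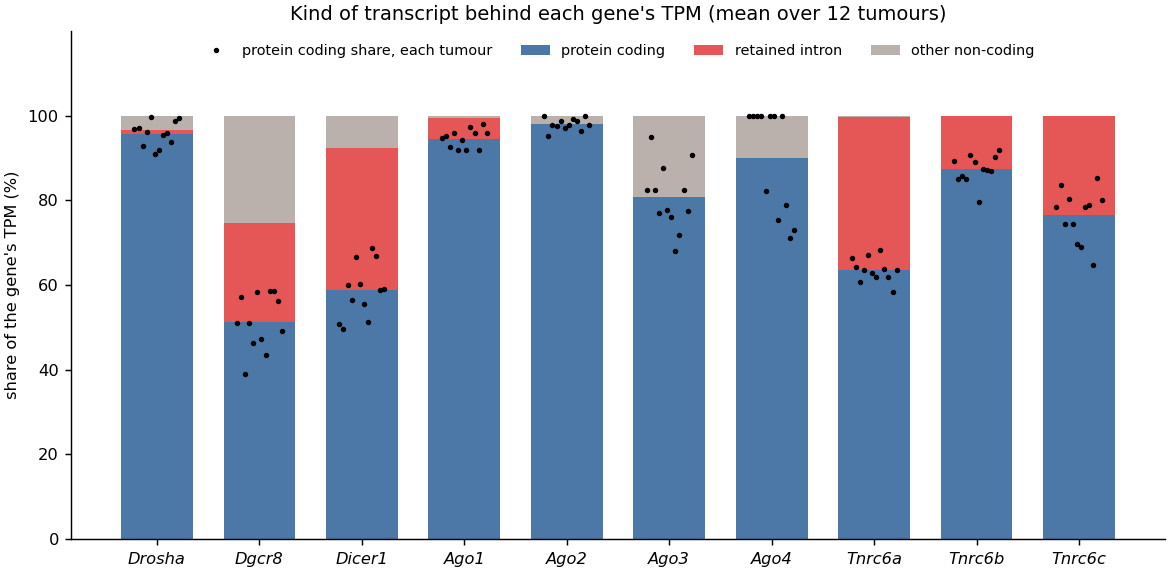
Share of each gene's TPM (%, mean of 12 tumours, stacked bars) from protein-coding, retained-intron and other non-coding transcripts, with the protein-coding share of each tumour as a black point. Dgcr8, Dicer1 and Tnrc6a have the lowest coding shares at 51.3, 58.7 and 63.6%.

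No member changed between treatments by the test over all genes. The DESeq2 Wald test with Benjamini-Hochberg adjustment called 0 of 10 members in any miRNA group compared to ctrl-EVs, at an adjusted p under 0.05. It called 1 of 15413 genes (0.00649%) with miR-142-5p, 0 (0%) with miR-183-5p and 4 (0.026%) with miR-222-3p, so few genes of any kind passed. The edgeR quasi-likelihood test called 0 genes in each, and 0 members had an unadjusted p under 0.05 by edgeR. At an unadjusted DESeq2 p under 0.05, 1 member passed with miR-142-5p (3.56% of all genes did), and 0 passed in the other comparisons with ctrl-EVs (3.22% and 2.29% of genes). Comparisons between the miRNA groups also called 0 members, beside 0.0519% of genes between miR-183-5p and miR-142-5p tumours, 0.0389% between miR-222-3p and miR-142-5p tumours and 0.0324% between miR-183-5p and miR-222-3p tumours. Unadjusted, 0, 1 and 0 members passed there, beside 7.95%, 3.59% and 3.24% of genes. The DESeq2 likelihood ratio test of any difference among the 4 groups called 0 members (0.0584% of genes) and 0 at an unadjusted p under 0.05 (4.73% of genes), with Drosha closest at an unadjusted p of 0.0891. The normalised counts of a miRNA group and the ctrl-EV group did not overlap in 1 member with miR-142-5p (6.07% of genes), 0 with miR-183-5p (9.17%) and 0 with miR-222-3p (5.5%), nor in any member between miR-183-5p and miR-222-3p tumours (9.06%). Over the 10 members, log2 fold changes ran from -0.18 to 0.28 with miR-142-5p (median -0.03, all genes -0.0050), from -0.25 to 0.22 with miR-183-5p (median -0.04, all genes -0.01) and from -0.13 to 0.31 with miR-222-3p (median -0.01, all genes -0.0078). In whole tumours, fewer cells expressing a gene and less RNA per cell cannot be told apart. The replicates were separate tumours, and each comparison with ctrl-EVs uses the same 3 control tumours.

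Drosha, the nuclear nuclease of the Microprocessor, varied least of all members and came nearest to a difference. Its normalised counts (scaled for depth and transcript length) were 2459, 2494 and 2713 in ctrl-EV tumours and 2202, 2250 and 2312 in miR-142-5p tumours. Every miR-142-5p tumour was below every ctrl-EV tumour. The log2 fold change was -0.18 ± 0.08 (SE), a fold of 0.883 (95% interval 0.796 to 0.979), with an unadjusted DESeq2 p of 0.0179, which did not pass adjustment. It was the member whose groups did not overlap here, and 2.94% of all genes lay lower in the same way. Counts were 2411, 2427 and 2522 in miR-183-5p tumours and 2469, 2504 and 2559 in miR-222-3p tumours, so the miR-142-5p tumours lay below all other tumours of the series. The log2 difference to miR-142-5p was 0.12 ± 0.08 with miR-183-5p (groups not overlapping in 1 member and 12.3% of genes) and 0.15 ± 0.08 with miR-222-3p (1 member, 6.2% of genes). The unadjusted DESeq2 p-values were 0.109 and 0.0414, and neither passed adjustment. Without miR-142-5p tumour 3, which had the highest leukocyte markers, the log2 fold change against ctrl-EVs was -0.20, and over all tumours left out in turn it ranged from -0.20 to -0.13. The 3′ UTR of Drosha, 169 bases long, holds no miR-142-5p seed match.

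Dgcr8, which binds the hairpin and positions Drosha on it, had overlapping groups throughout. Its normalised counts were 560, 575 and 647 in ctrl-EV tumours and 519, 570 and 663 in miR-142-5p tumours. The miR-183-5p tumours had 529, 600 and 650 and the miR-222-3p tumours 562, 614 and 656. The log2 fold changes against ctrl-EVs were -0.02, -0.0016 and 0.04 in the miRNA groups, each with an SE of 0.14.

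Dicer1, the cytoplasmic nuclease, was on average lower in each miRNA group than with ctrl-EVs, within the spread of tumours. Its normalised counts were 1410, 1656 and 1689 in ctrl-EV tumours and 1194, 1345 and 1470 in miR-183-5p tumours. The highest miR-183-5p tumour was above the lowest ctrl-EV tumour. The log2 fold change was -0.25 ± 0.16, a fold of 0.843 (0.681 to 1.04), with an unadjusted DESeq2 p of 0.119. The miR-142-5p tumours had 1272, 1539 and 1664 (log2 fold change -0.09 ± 0.16) and the miR-222-3p tumours 1310, 1349 and 1738 (-0.11 ± 0.16).

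Ago2 was the most abundant Argonaute and among the more variable members. Its normalised counts were 7501, 9827 and 11769 in ctrl-EV tumours, 8230, 8504 and 10061 in miR-142-5p tumours, 7625, 8396 and 10071 in miR-183-5p tumours and 7533, 7852 and 11283 in miR-222-3p tumours. The ctrl-EV tumours held both the lowest and the highest value of the series. The 5 miR-183-5p seed matches printed above lie in this mRNA, and its log2 fold change in miR-183-5p tumours was -0.16 ± 0.20, a fold of 0.897 (0.683 to 1.18). It was -0.12 ± 0.20 with miR-142-5p, for which the UTR holds no match, and -0.13 ± 0.20 with miR-222-3p, for which it holds 1. Compared directly, miR-183-5p tumours differed from miR-142-5p tumours by -0.04 (95% interval -0.43 to 0.35) and from miR-222-3p tumours by -0.03 (-0.42 to 0.36). The log2 fold change against ctrl-EVs depended on single tumours: it was -0.28 without miR-183-5p tumour 3, which had the muscle markers, -0.07 without miR-183-5p tumour 2, -0.31 without ctrl-EV tumour 1 and 0.0066 without ctrl-EV tumour 3.

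The other Argonautes, which bind miRNAs but lack or have little slicing activity, also overlapped in every comparison with ctrl-EVs. Ago1 had 1893, 2084 and 2475 normalised counts in ctrl-EV tumours and log2 fold changes of -0.03, -0.02 and 0.0018 in the miRNA groups (SE 0.17 to 0.18). Ago1 is the only member with a seed match for all 3 delivered miRNAs. Ago3 had 593, 875 and 996 in ctrl-EV tumours and 906, 946 and 1022 in miR-183-5p tumours, a log2 fold change of 0.22 ± 0.19 that was 0.02 when transcript length was left out of the scaling and 0.03 without ctrl-EV tumour 2. All 3 miR-183-5p tumours lay above the ctrl-EV mean for Ago3 but within the ctrl-EV range or just beyond it. In miR-142-5p tumours, where Ago3 holds 3 seed matches including the 8mer printed above, it had 781, 816 and 966 normalised counts (0.06 ± 0.19). Ago4 was too low for a narrow estimate. It had 88.5, 97.8 and 114 normalised counts in ctrl-EV tumours and 104, 114 and 153 in miR-222-3p tumours, a fold of 1.24 (0.790 to 1.94). That log2 fold change of 0.31 became -0.09 without the length scaling.

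The Tnrc6 paralogs varied widely between tumours of 1 group. Tnrc6a had 2593, 2689 and 3928 normalised counts in ctrl-EV tumours and 2451, 2582 and 2704 in miR-183-5p tumours (log2 fold change -0.25 ± 0.19). All miR-183-5p tumours lay below the ctrl-EV mean, but they overlapped the lower ctrl-EV tumours, and without ctrl-EV tumour 3 the log2 fold change was -0.03. Tnrc6b had 996, 1272 and 1769 in ctrl-EV tumours, and its log2 fold changes were 0.12, -0.0097 and -0.07 in the miRNA groups, each with an SE of 0.23. Tnrc6c had 602, 922 and 1133 in ctrl-EV tumours and 820, 1052 and 1362 in miR-142-5p tumours. The log2 fold change of 0.28 ± 0.25 was the highest of the members with miR-142-5p in the fit of all tumours and did not pass the test (fold 1.22, 0.870 to 1.70). It was 0.07 without ctrl-EV tumour 1 and 0.08 without miR-142-5p tumour 3.

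**Figure D3:**
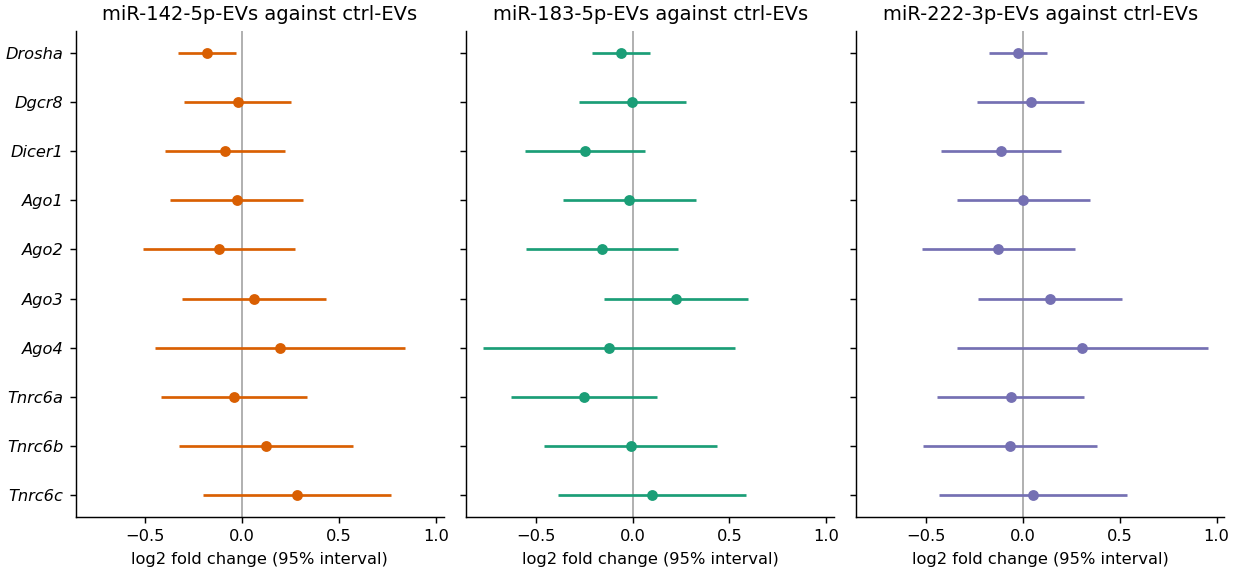
Log2 fold change of each member (points) with its 95% interval (lines) in each miRNA group against ctrl-EVs, DESeq2, 3 tumours per group. Drosha has the narrowest intervals and Ago4 the widest, and only the Drosha interval for miR-142-5p (-0.33 to -0.03, before any adjustment) leaves out 0.

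For 9 of 10 members, the spread of the 4 group means was no larger than the spread within groups would give. The SD of the group means on the log2 scale was 0.01 for Ago1, where tumours within groups differed with an SD of 0.21, which alone would give 0.12 between means of 3. For Ago2 the SD of the group means was 0.06 (0.15 from the spread within groups). Drosha was the exception with 0.08 against 0.03, on an SD within groups of 0.05.

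Shares within each family were compared next. Ago2 made up 61.4 ± 3.33% (SD, n = 12) of the summed Argonaute TPM, Ago1 29.4 ± 2.41%, Ago3 7.50 ± 1.07% and Ago4 1.73 ± 0.461%. The Ago2 share was 63.1 ± 3.22% with ctrl-EVs and lay at 61.5 ± 3.18%, 60.3 ± 5.44% and 60.5 ± 1.87% in the miRNA groups (n = 3 each, exact permutation p = 0.5, 0.5 and 0.3). Of the summed Tnrc6 TPM, Tnrc6a held 69.1 ± 2.72%, Tnrc6c 18.8 ± 2.15% and Tnrc6b 12.2 ± 0.882%. The Tnrc6b share was 11.7 ± 0.753% with ctrl-EVs and 13.0 ± 0.816% with miR-183-5p (n = 3 each). The highest ctrl-EV tumour had 12.2% and the lowest miR-183-5p tumour 12.3%, and the difference of 1.32 points had an exact permutation p of 0.1, the lowest the design allows. Other shares that separated were named after their values were seen, and no test was run on them. The Tnrc6a share was 68.5 to 74.9% with ctrl-EVs and 66.6 to 67.0% with miR-183-5p. The Ago4 share was 1.46 to 1.64% with ctrl-EVs and 1.89 to 2.09% with miR-222-3p, on at most 147 reads per library. How often such shares separate in other gene families was not examined. The Tnrc6b share was 12.5 ± 0.706% with miR-142-5p and 11.5 ± 0.557% with miR-222-3p (exact permutation p = 0.3 and 0.7). With protein-coding transcripts alone, the difference for miR-183-5p was 1.19 points (exact permutation p = 0.3).

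Drosha apart, most of the variation in these genes ran between tumours of the same group. Outside the miR-183-5p group it was largely shared among the members. In the miR-183-5p group tumour 1 was highest in 6 of 10 members, and tumours 2 and 3 were each lowest in 5. Among the ctrl-EV tumours, tumour 1 had the lowest normalised count in 9 of 10 members and tumour 3 the highest in 9 of 10. In the miR-222-3p group tumour 1 was highest in 8 of 10 members and tumour 3 lowest in 7, and in the miR-142-5p group tumour 1 was lowest in 8. Long genes in general moved in the same way. In the longest quintile of genes (2309 genes with a mean effective length of 3855 bases or more, to which 9 of the 10 members belong), ctrl-EV tumour 1 was lowest in 66.5%, ctrl-EV tumour 3 highest in 59.5% and miR-222-3p tumour 1 highest in 64.2%. Over all genes each of these tumours took 33.4, 34.2 and 38.3%. In the longest quintile miR-222-3p tumour 3 was lowest in 56.0% and miR-142-5p tumour 1 in 56.9%, beside 35.1% and 37.4% of all genes. In the miR-183-5p group tumour 1 was highest in 42.6% of the longest quintile (31.9% of all genes). Tumours 2 and 3 of that group were lowest in 44.6% and 34.8% (32.7% and 36.2% of all genes). The median log2 deviation from the mean of all tumours was -0.15 for the members and -0.14 for the longest quintile in ctrl-EV tumour 1, 0.21 and 0.16 in ctrl-EV tumour 3, and 0.32 and 0.11 in miR-222-3p tumour 1. The shortest quintile of genes moved the other way in the same tumours (0.17, -0.13 and -0.14). The part of transcript length in the members' variation was not tested beyond the centring given next.

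**Figure D4:**
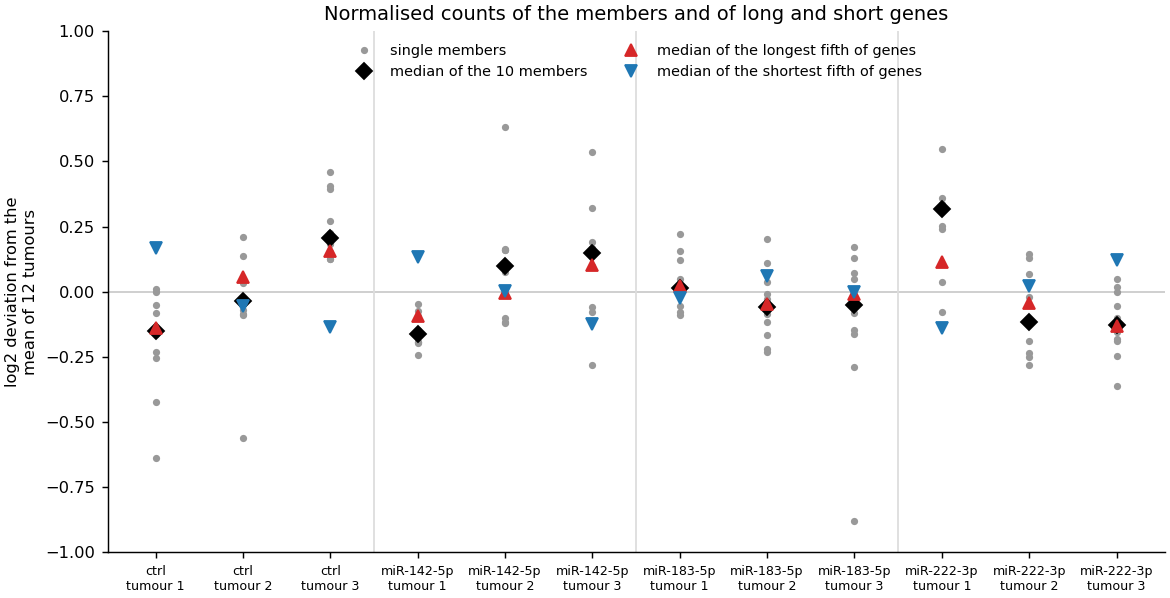
Log2 deviation of normalised counts from the mean of the 12 tumours for single members (grey points), the median of the 10 members (diamonds) and the medians of the longest and shortest quintile of genes by transcript length (triangles). Members and long genes lie together below 0 in ctrl tumour 1 and above 0 in ctrl tumour 3 and miR-222-3p tumour 1, where short genes lie on the other side.

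Across the 12 tumours, 3 relations between partners were examined on log2 TPM, with permutation tests (100000 resamples) adjusted over the 3. The summed Argonautes and the summed Tnrc6 genes varied together, with Pearson r = 0.95 (adjusted permutation p = 9.0e-05) and Spearman rho = 0.923 (0.00027). Without ctrl-EV tumour 3 and miR-222-3p tumour 1, the farthest from the median, r was 0.883, and within the 8 libraries with a high Gm28661 share it was 0.951. On log2 normalised counts r was 0.89 and rho 0.93. The median deviation of genes of the same length quintile was then subtracted in each library on that scale. This gave r = 0.708 (adjusted permutation p = 0.0324) and rho = 0.741 (0.0222). Without the farthest 2 tumours the centred r was 0.293, so that its size leaned on those tumours, and rho was not computed without them. Ago2 and Dicer1 had r = 0.761 (adjusted permutation p = 0.0095) and rho = 0.699 (0.0215), with r = 0.593 without the farthest 2 tumours and 0.869 within the 8 libraries. On log2 normalised counts r was 0.591 (adjusted permutation p = 0.0691) before centring on length and 0.0451 (0.893) after it. The matching rho was 0.427 (0.251) before and 0.315 (0.478) after. Drosha and Dgcr8, which form the Microprocessor, had r = 0.659 (adjusted permutation p = 0.0193) and rho = 0.573 (0.0564). Their relation rested on ctrl-EV tumour 3 and miR-142-5p tumour 1 (r = 0.252 without them, 0.706 within the 8 libraries). On log2 normalised counts r was 0.347 (adjusted permutation p = 0.272) before centring on length and 0.0449 (0.893) after it. How often other pairs of genes reach such r values was not examined.

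The genes most like Ago2 in normalised counts over the 12 tumours, among 11532 genes, were Zfp609 (r = 0.966), Usp6nl (0.944) and Glud1 (0.939). For Dicer1 they were Knop1 (0.936), Amer1 (0.932) and Irak1 (0.931). These values describe the 12 libraries, which share the length trend above, and carry no test.

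No gene of the wider pathway passed the test either. Of 64 other genes in 7 lists, 62 passed the count filter (Lin28a and Piwil1 did not), and DESeq2 and edgeR called 0 of the 62 in each comparison with ctrl-EVs, beside the 0.00649%, 0% and 0.026% of all genes called by DESeq2. At an unadjusted DESeq2 p under 0.05, 1 gene passed with miR-142-5p and 0 in the others, and 0 passed by edgeR. The median log2 fold changes of the 62 were -0.02, 0.0043 and -0.02 in the miRNA groups. The gene that passed was Cnot10, a CCR4-NOT subunit, singled out after its values were seen. It had 1740 to 1765 normalised counts in ctrl-EV tumours and 1545 to 1601 in miR-142-5p tumours (log2 fold change -0.15 ± 0.07, unadjusted DESeq2 p of 0.0361, not passing adjustment). Groups did not overlap in 2 pathway genes that lay lower (Cnot10 and Snd1) and 2 that lay higher (Tut4 and Piwil2) with miR-142-5p, beside 6.07% of all genes.

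Upstream of Dicer, none of the 9 Microprocessor cofactors and neither of the nuclear export genes was called. Hnrnpa2b1, a reader of primary miRNAs, had the highest level of the cofactors (1032 ± 118 TPM, SD, n = 12) and log2 fold changes of -0.06, -0.12 and -0.25 (SE 0.13). Ddx17, a helicase of the Microprocessor, had the largest log2 fold change of the 62 with miR-183-5p among genes with at least 100 mean normalised counts (-0.34 ± 0.21). Its counts were 30193 to 34339 in miR-183-5p tumours, below the 35036 to 49647 of ctrl-EV tumours, and they reached 30498 to 52998 in miR-222-3p tumours. Between miR-183-5p and ctrl-EV tumours, groups did not overlap in 5 of 62 pathway genes that lay lower (Ddx17, Srrt, Ncbp1, Cnot10 and Dcp2) and 1 that lay higher (Cnot7), named after their values were seen, beside 9.17% of all genes. Ran, the GTPase that drives hairpin export with Xpo5, stood at 250 ± 33.5 TPM with log2 fold changes of -0.18, 0.04 and -0.06 (SE 0.20). Tut7, a uridylyl transferase acting on precursors, led the Dicer partners at 79.9 ± 6.58 TPM with changes between -0.05 and -0.0092.

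At and after the Argonaute step, Hsp90ab1, a chaperone used in loading, stood at 1350 ± 100.4 TPM with log2 fold changes of -0.02, 0.12 and -0.04 (SE 0.11). Its paralog Hsp90aa1 had the largest change of the 62 with miR-222-3p by the same rule (-0.30 ± 0.15). Its counts were 19934 to 21072 in miR-222-3p tumours, below the 22034 to 27998 of ctrl-EV tumours, and did not pass adjustment. It was the 1 pathway gene of 62 whose groups did not overlap with miR-222-3p, beside 5.5% of all genes. Pabpc1, the poly(A)-binding protein that Tnrc6 contacts, had 1305 ± 149 TPM and changes of -0.11, 0.13 and -0.02 (SE 0.13), and Eif4e2, a cap-binding repressor, had 84.0 ± 7.03 TPM and changes of -0.02 to 0.06. Piwil4, a germline relative of the Argonautes, was listed at 22.6 ± 6.82 TPM, but 20.5 TPM belonged to the non-coding processed transcript and 2.12 TPM to coding transcripts. Its log2 fold change of -0.22 ± 0.35 with miR-142-5p was the largest of the 62 in that comparison among genes with at least 100 mean normalised counts.

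**Figure D5:**
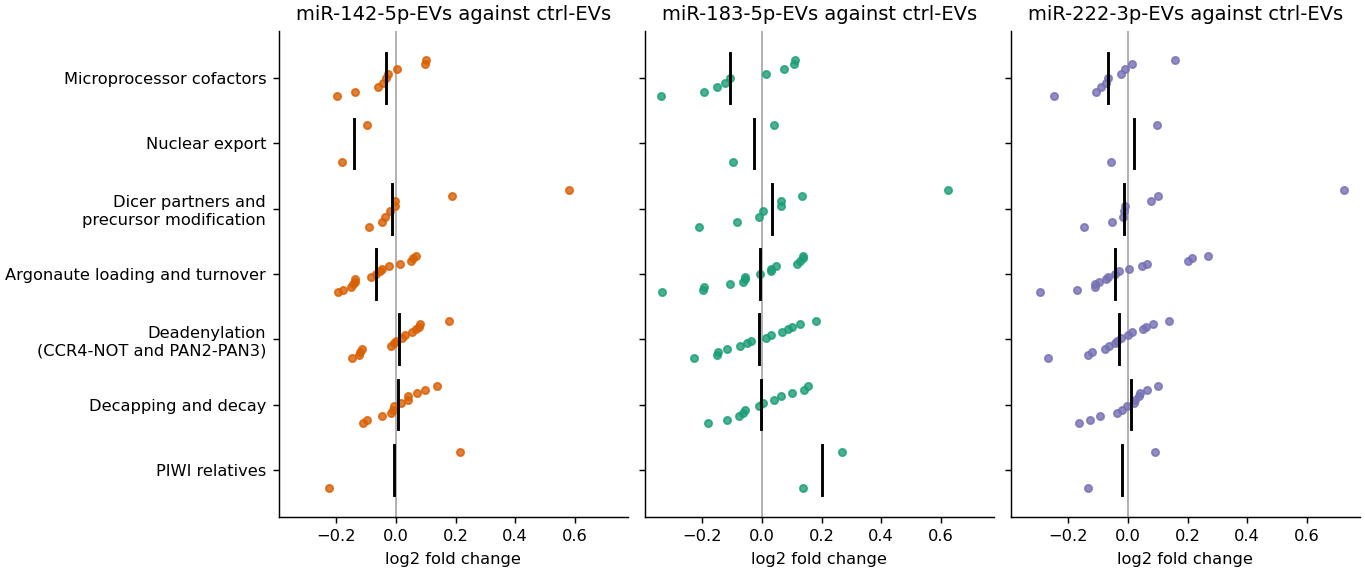
Log2 fold change of each of the 62 tested pathway genes (points) by list, with the list median (black bars), in tumours treated with each miRNA-EV against ctrl-EVs. List medians lie close to 0, the widest being 0.20 with miR-183-5p for the PIWI relatives (2 genes), and the most distant point is Lin28b, which had at most 18 reads in a library.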

How the data were processed

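Polyadenylated RNA of 12 tumours was sequenced by the authors with a stranded kit, and transcripts were quantified with Salmon on GRCm38. The annotation release behind these tables is not settled here. The deposited tables give per transcript an estimated count, not normalised, and a TPM (scaled by effective length to a fixed total), 1 table per tumour. Of 118783 transcripts, 98.3% were matched to genes by GENCODE M21. The unmatched took 0.633 to 0.671% of reads. Estimated counts were summed to genes, rounded, and tested with DESeq2 1.42.0 with a transcript-length offset (R 4.3.3, group as the only term, all 12 tumours, a minimum of 10 reads in 3 or more libraries). The study's methods name DESeq2 on gene sums, and the terms, the joint fit and the filter were chosen here. The quasi-likelihood test of edgeR 4.0.16 was run as an alternative. Unshrunken log2 fold changes are given with SEs and Wald intervals. Both tools were run on simulated counts with the same dispersion for every gene and planted changes larger than those of the members. A share of false calls above the nominal one was accepted in that check. It does not show how either tool handles changes as small as the members'.

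Levels were compared as TPM and relations as log2 TPM with no pseudocount (scipy 1.17.1). The relations centred on length used log2 normalised counts. The 3′ UTRs were read from GENCODE M21 (GRCm38). The members and the lists of pathway genes and markers were chosen with earlier results of these data known. Of the pathway list, the text names genes past the threshold (there were none), the gene with the highest TPM in each list, and in each comparison with ctrl-EVs the largest absolute log2 fold change among genes with at least 100 mean normalised counts. For Ago2 and Dicer1 it names the 3 genes with the highest Pearson r. Coding shares, the grouping of libraries by Gm28661 and the centring on length were added after seeing the data. No untreated tumours and no protein sequences were used here. Of 11 marker lists, 1 is not reported here.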

Additional observations from a re-analysis of the deposited data

How the results depend on the processing

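The counts of members and of pathway genes called stayed at 0 with edgeR, TMM factors in DESeq2, no filter, at least 50 reads in every library, no length offset, fits of the compared groups alone, the replicate block, an adjusted p under 0.1 and each tumour left out, and, for miR-142-5p and miR-183-5p, within the 8 libraries with a high Gm28661 share. Against ctrl-EVs, the lowest adjusted p of a member over these fits of DESeq2 or edgeR was 0.924. No member was called, so a changed sign concerns a value that did not pass the test. Without the length offset, log2 fold changes of changed sign were with miR-142-5p Ago3 -0.029, Dicer1 0.016, Dgcr8 0.078 and Tnrc6a 0.021, and with miR-183-5p Ago1 0.0043 and Dgcr8 0.049, and with miR-222-3p Ago4 -0.086. Within the 8 libraries they were with miR-183-5p Ago1 0.059, Ago4 0.14 and Tnrc6b 0.030. The value of Dgcr8 with miR-183-5p was 0.0015 with edgeR, 0.0024 with TMM factors and 0.00088 when fitted on the compared groups alone.

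Residuals gave no sign of pairing by tumour number. Over 18 pairs with the same number in different groups their mean correlation was -0.0675 (single pairs -0.577 to 0.357, 11542 genes). The mean of 0.0334 over 36 pairs with different numbers is no independent comparison, because residuals were centred within each group of 3. The replicate block left 0 members and 0 pathway genes called, and the only changes of sign were Dgcr8 0.00050 with miR-183-5p and Ago1 -0.00029 with miR-222-3p.

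Leaving out 1 tumour at a time changed the sign of the following log2 fold changes, given as ranges. With miR-142-5p they were Ago1 -0.11 to 0.086, Ago2 -0.27 to 0.045, Ago3 -0.13 to 0.23, Ago4 -0.13 to 0.37, Dicer1 -0.17 to 0.016, Dgcr8 -0.12 to 0.053, Tnrc6a -0.15 to 0.17 and Tnrc6b -0.051 to 0.37. With miR-183-5p they were Ago1 -0.10 to 0.097, Ago2 -0.31 to 0.0066, Ago4 -0.35 to 0.13, Dgcr8 -0.074 to 0.073, Tnrc6b -0.19 to 0.24 and Tnrc6c -0.11 to 0.32. With miR-222-3p they were Ago1 -0.17 to 0.12, Ago2 -0.34 to 0.039, Ago3 -0.050 to 0.31, Drosha -0.052 to 0.022, Dgcr8 -0.013 to 0.11, Tnrc6a -0.26 to 0.16, Tnrc6b -0.31 to 0.18 and Tnrc6c -0.16 to 0.27. The others kept their sign and ranged from -0.20 to -0.13 for Drosha with miR-142-5p, 0.071 to 0.50 for Tnrc6c with miR-142-5p, 0.032 to 0.39 for Ago3 with miR-183-5p, -0.32 to -0.17 for Dicer1 with miR-183-5p, -0.085 to -0.012 for Drosha with miR-183-5p, -0.36 to -0.033 for Tnrc6a with miR-183-5p, 0.12 to 0.42 for Ago4 with miR-222-3p and -0.25 to -0.038 for Dicer1 with miR-222-3p.

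Of the shares, the difference of Ago2 with miR-142-5p ranged from -3.45 to 0.186 points without 1 tumour, and that of Tnrc6b with miR-222-3p from -0.609 to 0.116, or 0.667 with protein-coding transcripts only. On normalised counts, r was 0.591 (adjusted permutation p = 0.0691) for Ago2 with Dicer1 and 0.347 (adjusted permutation p = 0.272) for Drosha with Dgcr8. Centred on length, r was 0.0451 and 0.0449. Why these values shifted was not tested beyond the construction of each alternative. With 3 tumours per group the 95% interval of Ago4 with miR-222-3p reached from -0.34 to 0.95 on the log2 scale. The size and direction of a change were therefore not resolved there.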
